A study of Mus musculus with 30 samples.

Results

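RNA of the right lung lobes was compared between 6 mouse embryos with a conditional Myocd (myocardin) deletion and 4 control embryos, all taken at E18.5, shortly before birth. These 10 libraries were all those labelled E18.5 lung, of 30 in the series; the other 20 came from lungs at E13.5 and tracheas at E18.5. Of 53715 annotated genes, 17467 had enough reads to be tested. The mutants carried Tbx4rtTAi/+, tetOcrei/+ and MyocdF/F, and the controls carried the same 2 transgenes with MyocdF/+, so every lung had the transgenes and each control also had 1 floxed Myocd allele. The Tbx4 element drives the doxycycline-dependent activator rtTA, which switches on Cre from the tetO transgene, and no source used here gives the dosing schedule. Each library is 1 embryo's lobes, litters are not stated, and p-values measure the spread between these lungs only. The tissue is unsorted lung, so fewer cells of a type and less RNA per cell cannot be told apart in any result here.

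Myocardin is a coactivator of serum response factor (SRF) that turns on the contractile genes of smooth muscle through CArG boxes. In the developing lung it acts in the smooth muscle wrapped around the airways, next to an epithelium in which multiciliated cells move mucus and club cells secrete protective proteins. Motile cilia are built from axonemal dyneins, radial spokes and a central pair of microtubules, and their genes are switched on together by FOXJ1 and RFX factors, the latter binding X-box motifs.

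Myocd itself stood at 12.1, 6.14, 10.7 and 8.84 CPM (reads scaled to library size) in controls 1 to 4, and at a lowest, median and highest of 5.69, 6.88 and 10.4 CPM in the mutants. The groups overlapped, and the log2 fold change was -0.35 (standard error 0.209, adjusted p 0.651), where a fold change is mutant over control throughout. Reads from exons outside the floxed part still count toward the gene, so this level does not check the labels. The markers of lung tissue were abundant in both groups: Sftpc, the surfactant protein of alveolar type 2 cells, averaged 9511 ± 655 CPM in controls and 9418 ± 1053 CPM in mutants (SD, n = 4 and n = 6).

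At a Benjamini-Hochberg adjusted p below 0.05 in edgeR's quasi-likelihood test (such genes are said to pass), 102 genes differed, 0.584% of those tested. Of these, 96 (0.550%) fell and 6 (0.0344%) rose in mutants. DESeq2, the test named in the series' design text, called 262 genes, 216 lower and 46 higher, among them all 102. The falls were modest: their median was -0.75 on the log2 scale, 17 genes fell at least 2-fold and 22 fell by less than 1.5-fold. In all, 12 genes passed against a null of a 1.2-fold change. In simulated counts with known changes, the edgeR test without that null found 46.3% of genes changed 1.5-fold and 68.7% of those changed 2-fold. Of its 137 calls there, 7 were false. A list with no passing gene can therefore still hold changes of that size. Of the 96 falls, 30 belonged to lists of ciliated-cell genes, 10 to lists of secretory, xenobiotic or mucous airway genes, 3 to smooth muscle lists and 48 to no list. At an unadjusted p below 0.05 there were 1644 genes. The median log2 fold change of all genes was 0.005, with 48.7% of genes below 0.

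The set of passing genes rested partly on single lungs. Without control 1 only 26 genes passed, all of them among the 102; without control 3 the number was 48, without control 4 it was 43, without mutant 4 it was 59, and without control 2 it was 205. All 102 genes kept their sign in each of the 10 fits, and 21 passed in every one. Total counts ranged from 24.8 M to 32.8 M reads in controls and from 19.9 M to 30.4 M in mutants. At an equal depth of 19858023 reads, 22980 ± 459 genes were detected in controls and 21145 ± 908 in mutants (exact permutation test over the 210 splits, two-sided p = 0.019, adjusted p = 0.0952 over 8 library measures). The share of reads on ribosomal RNA was 0.0758% ± 0.0108 in controls and 0.104% ± 0.0167 in mutants (exact permutation p = 0.0238, adjusted p = 0.0952). With that share as a covariate 4 genes passed, 3 of them among the 102, and its part in the falls was not tested further. With all 30 libraries of the series in 1 fit, which shares the spread across stages and tissues, 118 genes passed, 69 of them among the 102; Scgb1a1 did not pass there (-0.91, adjusted p 0.178). Of the other genes named below, Wdr78, Hp, Cyp2f2, Cldn10, Aldh1a7, Wfdc2, Fn1, Slc4a1, Crim1, Gdf10 and Marcksl1 were among those that did not pass in that fit.

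**Figure D1:**
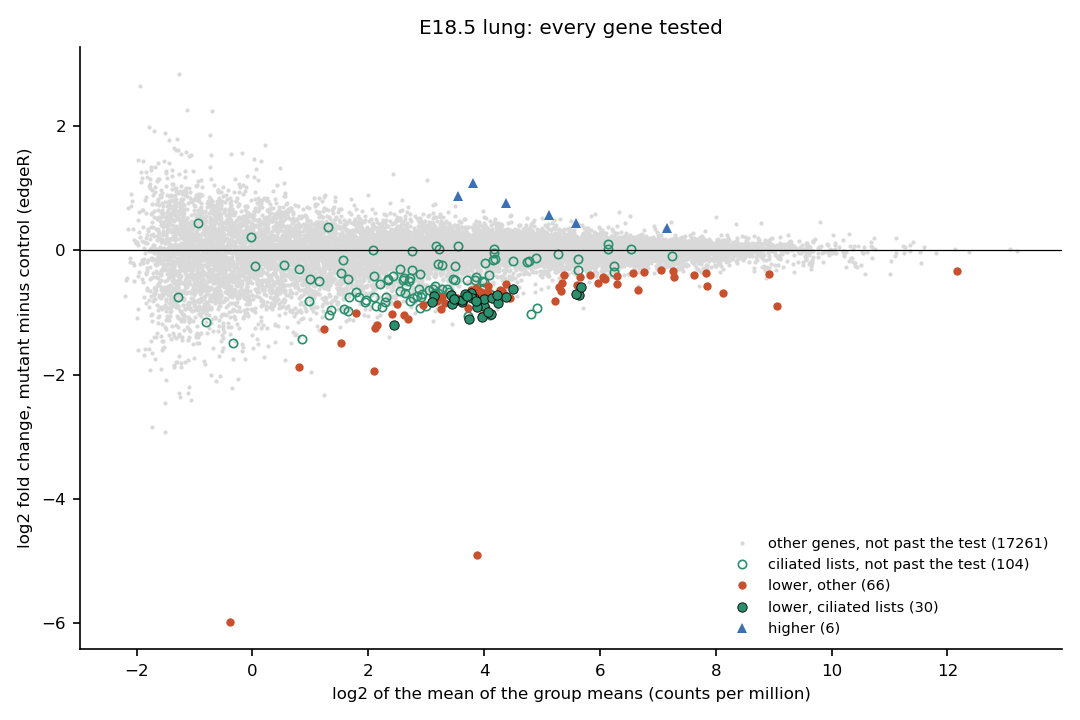
Log2 fold change of mutant over control against mean level (log2 CPM) for the 17467 genes tested, with genes of the ciliated lists and other passing genes coloured. The 30 falling ciliated genes and 66 other falls lie below the line at 0, and 6 rises lie above it.

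Many genes of the motile cilium fell. Of 134 tested genes in the ciliated lists other than intraflagellar transport, 30 fell, none rose and 123 had a log2 fold change below 0, with a median of -0.65 beside 0.005 for all genes. In 53 of the 134 every mutant lay below every control, against 1.75% of all genes. Without control 1 the count of falls was 7, without control 3 or control 4 it was 15, and with the ribosomal RNA share as a covariate it was 0; the list's median stayed between -0.68 and -0.49 over all alternatives.

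Among the regulators of multiciliated cells, Foxj1, which switches on the motile cilia programme, stood at 68.9, 60.1, 54.3 and 63.2 CPM in controls 1 to 4 and at 34.7, 40.5 and 49.8 CPM as lowest, median and highest mutant. No mutant reached the lowest control. It fell 1.5-fold, from 61.6 ± 6.12 CPM in the 4 controls to 41 ± 5.27 CPM in the 6 mutants (SD), a log2 fold change of -0.59 (standard error 0.0962, adjusted p 0.00876). Myb, which acts early in multiciliated differentiation, fell from 17 ± 1.14 CPM in the 4 controls to 10.5 ± 1.99 CPM in the 6 mutants (SD), a log2 fold change of -0.69 (standard error 0.139, adjusted p 0.0256). Ccdc78, needed for the deuterosomes that multiply centrioles, had a log2 fold change of -0.79 (standard error 0.168, adjusted p 0.0366), with the groups overlapping. The other 14 of the 17 regulators did not pass. Among these, Mcidas, a coactivator that starts the multiciliated fate, had a log2 fold change of -0.47 (standard error 0.234, adjusted p 0.562); Trp73, which acts upstream of Foxj1, of -0.57 (standard error 0.151, adjusted p 0.115); and the RFX factors Rfx2 and Rfx3, both partners of FOXJ1, of -0.20 (standard error 0.13, adjusted p 0.677) and -0.20 (standard error 0.173, adjusted p 0.78). These 4 were named for their roles after their values were seen. Foxj1 passed in every fit that left out 1 library, and calls were lost for Myb without control 1, 3 or 4 or mutant 4, 5 or 6 (-0.77 to -0.61) and Ccdc78 without control 1, 3 or 4 or mutant 1, 3, 4, 5 or 6 (-0.92 to -0.69), with the range of log2 fold changes in parentheses.

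The axonemal dyneins are the motors of the cilium. Dnah3, an inner-arm heavy chain, stood at 24.4, 16.1, 23.8 and 20.4 CPM in controls and at 8.03, 9.68 and 12.9 CPM as lowest, median and highest mutant. The groups did not overlap, and the log2 fold change was -1.08 (standard error 0.154, adjusted p 0.00326). Its exons share 10.5% of their bases with other genes, so some of its reads are uncertain. Dnah2, another inner-arm heavy chain, had a log2 fold change of -0.91 (standard error 0.158, adjusted p 0.00994), and control 2, the lowest control, lay within the mutant range. Wdr78, an intermediate chain of an inner arm, had -0.62 (standard error 0.117, adjusted p 0.0174). In the outer arm, the heavy chains Dnah9 and Dnah5 fell by a log2 fold change of -0.86 (standard error 0.158, adjusted p 0.0151) and -0.82 (standard error 0.15, adjusted p 0.0139), and the intermediate chain Dnaic2 by -0.77 (standard error 0.154, adjusted p 0.0256). The list totals were 3 of 15 inner-arm genes and 3 of 13 outer-arm genes, with medians of -0.91 and -0.58. Of 13 genes that assemble dynein arms in the cytoplasm, 1 fell, Zmynd10, with -0.81 (standard error 0.147, adjusted p 0.0139), although all 13 lay below 0 (median -0.30). Leaving out 1 library ended the call for Dnah2 without control 1 or 3 (-1.08 to -0.81), Dnah5 without control 1 or 3 (-0.93 to -0.74), Dnah9 without control 1 or 3 or mutant 4 (-0.98 to -0.68), Dnaic2 without control 1, 3 or 4 or mutant 4 (-0.84 to -0.68), Wdr78 without control 1, 3 or 4 or mutant 4 (-0.73 to -0.55) and Zmynd10 without control 1 or 4 (-0.87 to -0.74).

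Radial spokes and the central pair set the beat. Of 27 tested genes 8 fell, and 25 lay below 0 (median -0.72). Hydin, a very large central pair protein, stood at 30.5, 16.4, 23 and 23 CPM in controls and at 8.13, 11.1 and 14.5 CPM as lowest, median and highest mutant, a log2 fold change of -1.03 (standard error 0.164, adjusted p 0.00764). Rsph4a, a spoke-head protein, stood at 19.8, 18.4, 22.6 and 19.6 CPM in controls and at 9.51, 11.6 and 14.3 CPM in mutants by the same measure, a log2 fold change of -0.78 (standard error 0.126, adjusted p 0.00764). In both genes every mutant lay below every control. Cfap74, a central pair protein, had -0.89 (standard error 0.126, adjusted p 0.00326) and Ak7, an adenylate kinase of cilia, had -0.72 (standard error 0.111, adjusted p 0.00487), while Cfap46, a central pair protein, had -1.11 (standard error 0.185, adjusted p 0.00994) and Rsph1, a spoke-head protein, had -0.74 (standard error 0.142, adjusted p 0.0183). Calls were lost for Cfap46 without control 1 (-1.24 to -1.01) and Rsph1 without control 1, 3 or 4 (-0.81 to -0.64).

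Of 49 genes for the ruler, nexin link and proteins inside the microtubules, 12 fell and 45 lay below 0 (median -0.69). Cfap126, which helps to place basal bodies, had a log2 fold change of -0.77 (standard error 0.122, adjusted p 0.00682) and passed in every fit without 1 library, but not with all 30 libraries in 1 fit (adjusted p 0.0741). Drc3 and Iqcg, both parts of the nexin link, had -0.78 (standard error 0.129, adjusted p 0.00934) and -0.73 (standard error 0.125, adjusted p 0.00994), Cfap206 had -0.84 (standard error 0.151, adjusted p 0.0139), and Lrrc23, a spoke protein, had -0.71 (standard error 0.121, adjusted p 0.00994). Calls were lost for Drc3 without control 1 (-0.85 to -0.70), Iqcg without control 1 (-0.76 to -0.67), Lrrc23 without control 1 (-0.78 to -0.62) and Cfap206 without control 1 or 4 (-0.93 to -0.76). Intraflagellar transport and the BBSome carry cargo along all cilia, motile or not. None of their 33 genes passed in edgeR or in DESeq2, 7 were lower at an unadjusted p below 0.05, 27 lay below 0 and the median was -0.12. Their most abundant members gave -0.17 for Ift172 and 0.03 for Ift46 on the log2 scale (adjusted p 0.525 and 0.916). The difference between these lists was not tested.

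**Figure D2:**
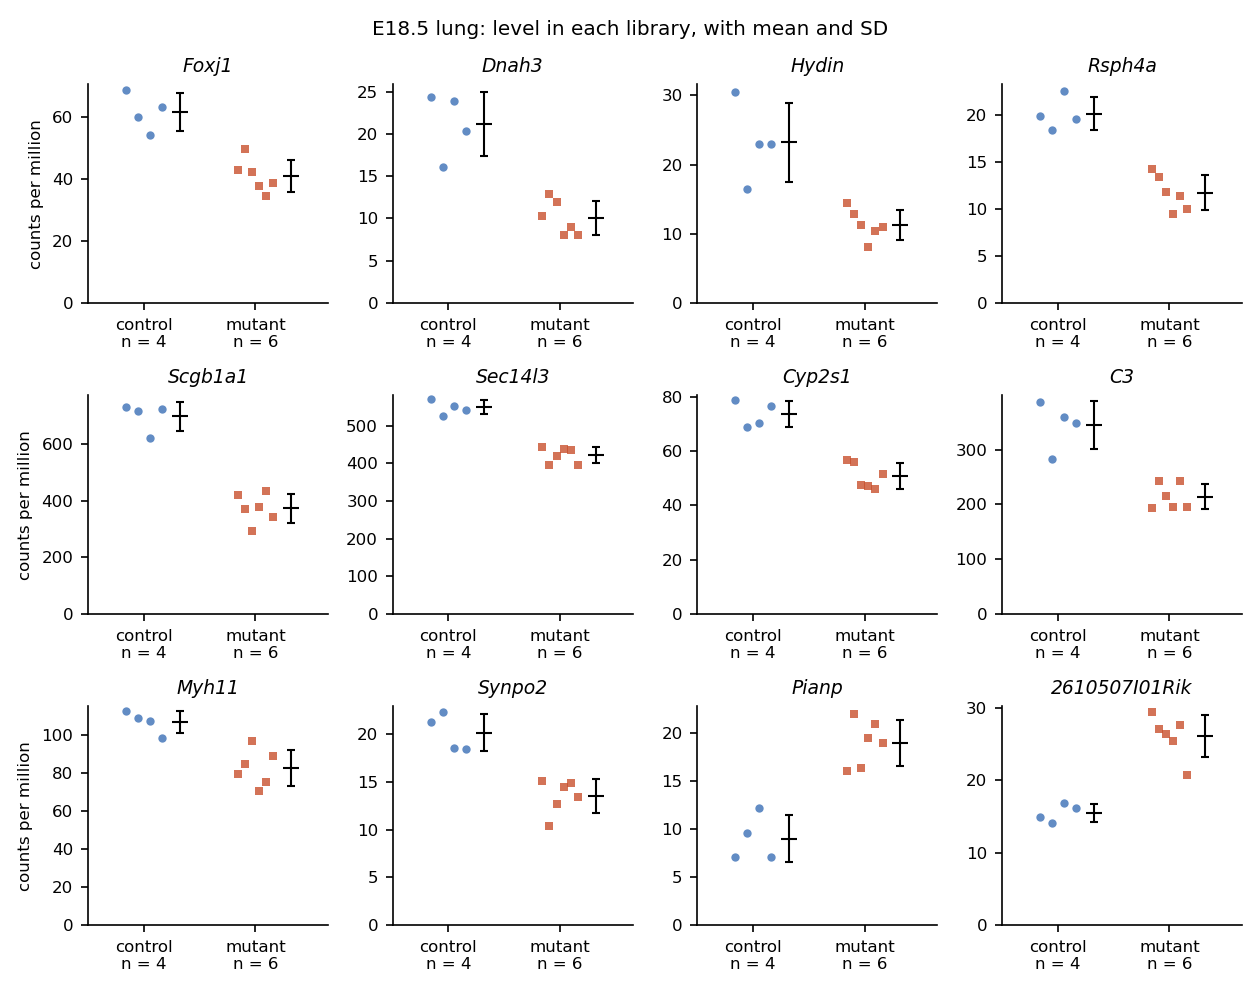
CPM of 12 genes in each of the 4 control and 6 mutant libraries, with group means and SD as bars. Every Foxj1, Dnah3, Hydin and Rsph4a value in mutants lies below every control value.

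The promoters of these genes were read for the motif of the RFX factors, named above as a regulator of this group. The windows run from 250 bases before to 50 bases after each RefSeq transcription start (GRCm38.p6), and capitals mark the X-box half-site GTTGCC, searched on both strands, except that in Ak7 they mark the forkhead motif GTAAACA. The 5 shown all hold a marked motif, and all but Dnaic2 belong to the radial spoke and central pair list. The windows of Dnah2, Dnah5, Dnah9, Drc3, Cfap126 and Cfap206 held neither motif. The motifs marked within a window do not overlap.
Cfap74 (chr4:155408940-155409239, plus strand): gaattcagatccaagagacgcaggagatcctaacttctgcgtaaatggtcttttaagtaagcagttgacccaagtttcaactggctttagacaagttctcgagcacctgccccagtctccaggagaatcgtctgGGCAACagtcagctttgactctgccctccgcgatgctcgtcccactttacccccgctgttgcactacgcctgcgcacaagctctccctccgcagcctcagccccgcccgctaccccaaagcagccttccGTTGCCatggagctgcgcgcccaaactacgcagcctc
Hydin (chr8:110266727-110267026, plus strand): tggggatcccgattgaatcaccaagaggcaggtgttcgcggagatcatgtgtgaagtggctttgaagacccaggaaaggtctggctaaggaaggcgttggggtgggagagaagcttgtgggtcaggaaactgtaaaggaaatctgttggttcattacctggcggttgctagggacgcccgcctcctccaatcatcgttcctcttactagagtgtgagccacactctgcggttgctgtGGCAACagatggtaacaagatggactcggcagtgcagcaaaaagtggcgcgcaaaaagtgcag
Dnaic2 (chr11:114727169-114727468, plus strand): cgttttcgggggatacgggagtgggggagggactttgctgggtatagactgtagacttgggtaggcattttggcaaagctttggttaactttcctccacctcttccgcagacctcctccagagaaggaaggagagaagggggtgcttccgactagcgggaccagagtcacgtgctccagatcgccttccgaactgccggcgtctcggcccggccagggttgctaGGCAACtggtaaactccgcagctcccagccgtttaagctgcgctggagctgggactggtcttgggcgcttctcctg
Cfap46 (chr7:139683766-139684065, minus strand): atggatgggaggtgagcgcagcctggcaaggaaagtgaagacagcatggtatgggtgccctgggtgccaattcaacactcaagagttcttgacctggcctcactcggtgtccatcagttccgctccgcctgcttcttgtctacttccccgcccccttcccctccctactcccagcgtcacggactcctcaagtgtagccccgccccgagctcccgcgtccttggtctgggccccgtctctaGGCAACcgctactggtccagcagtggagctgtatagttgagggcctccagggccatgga
Ak7 (chr12:105705732-105706031, plus strand): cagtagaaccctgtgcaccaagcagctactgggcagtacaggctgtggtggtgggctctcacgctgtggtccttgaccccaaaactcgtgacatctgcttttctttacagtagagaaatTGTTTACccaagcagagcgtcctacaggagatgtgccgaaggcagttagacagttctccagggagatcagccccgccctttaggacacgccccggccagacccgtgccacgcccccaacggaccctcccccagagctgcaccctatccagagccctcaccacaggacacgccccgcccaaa
In the windows of Hydin, Dnaic2 and Cfap46 the half-site begins 13, 26 and 9 bases before the start.

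The half-site was found in 14 of 27 windows (51.9%) of the falling ciliated genes, in 52 of 124 windows (41.9%) of all tested ciliated genes, in 13% of windows of tested genes and in 12.5% of all 32851 windows. It was also in 12 of 45 windows (26.7%) of falls that belong to no list, in 0 of 10 windows of the falling secretory genes and in 0 of 9 windows of the genes that rose. The forkhead motif was in 2 of the 27 falling ciliated windows (7.41%), beside 3.65% of all windows. These shares are per window and not per gene. The 27 windows came from 23 genes and the 124 from 110, and overlapping windows, such as those of Cfap74, count the same motifs again. The table held a window for 69 of the 96 falls. A match is a description of these letters and was not tested as a binding site.

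Another 48 falls belonged to no list. Those of the 15 falls named by smallest p (predicted gene models aside) were Fhad1, with a log2 fold change of -0.93 (standard error 0.13, adjusted p 0.00326), Dlec1, with -0.91 (standard error 0.129, adjusted p 0.00326), Ccdc17, with -0.56 (standard error 0.0797, adjusted p 0.00326), Ccdc162, with -1.05 (standard error 0.158, adjusted p 0.00421), and Ccdc150, with -1.5 (standard error 0.226, adjusted p 0.00421). The exons of Ccdc17 share 33.1% of their bases with other genes. Hdc, which makes histamine, fell from 124 ± 21.3 CPM in the 4 controls to 79.1 ± 8.45 CPM in the 6 mutants (SD), a log2 fold change of -0.65 (standard error 0.102, adjusted p 0.0091). All 6 passed in every fit that left out 1 library. Gm1821 and Gm18860, a pair of processed pseudogenes, also fell and were named after their values were seen. Gm1821 (chromosome 14, 46084028 to 46085000) stood at 27.7, 28.8, 31.7 and 25.8 CPM in controls and at 0.584, 0.918 and 1.49 CPM as lowest, median and highest mutant, a log2 fold change of -4.89 (standard error 0.194, adjusted p 6.13e-11). Gm18860 stood at 1.12 to 1.94 CPM in controls and 0 to 0.0795 CPM in mutants, which is few or no reads in the mutants, so no fold is given. Reads from near-identical copies cannot be told apart in such genes.

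Genes of secretory airway cells fell as well. Of 25 club-cell genes 5 fell, none rose and 23 lay below 0 (median -0.39). Scgb1a1, the club cell secretory protein, stood at 729, 717, 621 and 722 CPM in controls 1 to 4 and at 292, 375 and 435 CPM as lowest, median and highest mutant. Every mutant lay below every control, and the fall was 1.87-fold, from 697 ± 51.1 CPM in the 4 controls to 373 ± 51.9 CPM in the 6 mutants (SD), a log2 fold change of -0.90 (standard error 0.0914, adjusted p 0.000226). Sec14l3, a lipid-binding protein of airway epithelium, fell by a log2 fold change of -0.38 (standard error 0.0564, adjusted p 0.00411). Hp, the haemoglobin-binding protein haptoglobin, fell from 275 ± 24.5 CPM in the 4 controls to 185 ± 29.5 CPM in the 6 mutants (SD), a log2 fold change of -0.57 (standard error 0.101, adjusted p 0.0143). Cldn10, a tight junction protein of club cells, had -0.41 (standard error 0.0872, adjusted p 0.0371). Scgb3a2, a secretoglobin made earlier in development, did not pass, with -0.45 (standard error 0.11, adjusted p 0.102). Without control 1 or control 4, 2 club-cell genes passed, and with the ribosomal RNA covariate, or with all 30 libraries in 1 fit, 1 did; Scgb1a1 itself did not pass in the latter (adjusted p 0.178), nor did Sec14l3 (0.271); calls were lost for Hp without control 1 or 4 (-0.64 to -0.52) and Cldn10 without control 1, 3 or 4 or mutant 1, 3, 4 or 6 (-0.46 to -0.36).

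Enzymes that handle foreign chemicals and aldehydes fell in 5 of 36 cases (median -0.15, 25 below 0). Cyp2s1, a cytochrome P450, stood at 78.8, 68.9, 70.5 and 76.6 CPM in controls and at 46.1, 49.6 and 56.9 CPM as lowest, median and highest mutant, without overlap, a log2 fold change of -0.53 (standard error 0.0782, adjusted p 0.00396). Cyp2f2, the P450 that marks club cells, had -0.43 (standard error 0.0857, adjusted p 0.0256). The aldehyde dehydrogenases gave -0.55 (standard error 0.0997, adjusted p 0.0146) for Aldh1a1, -0.35 (standard error 0.07, adjusted p 0.0256) for Aldh1a7 and -1.94 (standard error 0.401, adjusted p 0.0433) for Aldh3a1. Aldh1a1 and Aldh1a7 are close copies, so the authors' counting could split their reads. Among 19 genes of mucous cells and airway defence 1 fell, Wfdc2, with -0.32 (standard error 0.059, adjusted p 0.0143). Some calls were lost: Cyp2f2 without control 1, 3 or 4 or mutant 4 (-0.48 to -0.38), Aldh1a1 without control 1 or 3 (-0.67 to -0.48), Aldh1a7 without control 1, 3 or 4 or mutant 1, 4 or 6 (-0.38 to -0.31), Aldh3a1 without control 1, 3 or 4 or mutant 2, 3, 4 or 5 (-2.32 to -1.73) and Wfdc2 without control 1 or 4 (-0.36 to -0.29). Basal-cell genes did not pass in any of 9 cases (median 0.05), nor did any of 15 neuroendocrine genes (median -0.20).

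Ratios within each library set 7 airway or alveolar genes against genes of the epithelium. The 7 were chosen with earlier results of these data known, and all but Scgb3a2 passed the gene test in these same libraries. The p-values of the ratios are therefore no separate support for the falls. Against Epcam, a general epithelial adhesion protein that itself averaged 80 ± 4.82 CPM in controls and 75 ± 5.66 CPM in mutants (adjusted p 0.736), the mean log2 ratio fell by 0.817 for Scgb1a1, by 0.741 for Dnah5, by 0.695 for Rsph4a and by 0.497 for Foxj1. In these 4 ratios no mutant overlapped a control (exact permutation p = 0.00476, the smallest the 210 splits allow, adjusted p = 0.01 over 21 ratios). Sftpd against Epcam fell by 0.316 (exact permutation, adjusted p = 0.0364), whereas Scgb3a2 and Cyp2f2 did not pass, with differences of -0.358 and -0.337 (exact permutation, adjusted p = 0.136 and 0.0846). Against Nkx2-1, the transcription factor of lung epithelium, all 7 ratios passed. Each difference was further below 0 than over Epcam, such as -0.594 for Cyp2f2 and -0.615 for Scgb3a2. The mean log2 ratio of Nkx2-1 to Epcam was thus higher in mutants, and this shift is part of all 7 differences. The calls depended on single libraries: leaving out 1 ended that of Sftpd over Epcam in 8 of 10 fits (adjusted p up to 0.114) and of Scgb3a2 over Nkx2-1 in 8 of 10 (up to 0.125), all by exact permutation. It ended Dnah5 over Epcam without control 1 or 3 (exact permutation, adjusted p up to 0.075), and Cyp2f2 and Sftpd over Nkx2-1 without control 1 (0.075 and 0.0625), while the other 7 calls held. Against Sox2, the transcription factor of the conducting airways, none of 7 did, with differences from -0.216 to 0.285 (exact permutation, adjusted p from 0.313 to 0.643). Sox2 itself was at 4.49, 5.86, 4.4 and 5.68 CPM in controls and at 2.01, 3.24 and 4.47 CPM as lowest, median and highest mutant, a low level, with a log2 fold change of -0.66 (standard error 0.229, adjusted p 0.32). A fall in the share of airway cells and a fall of their products per cell cannot be told apart from these ratios.

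**Figure D3:**
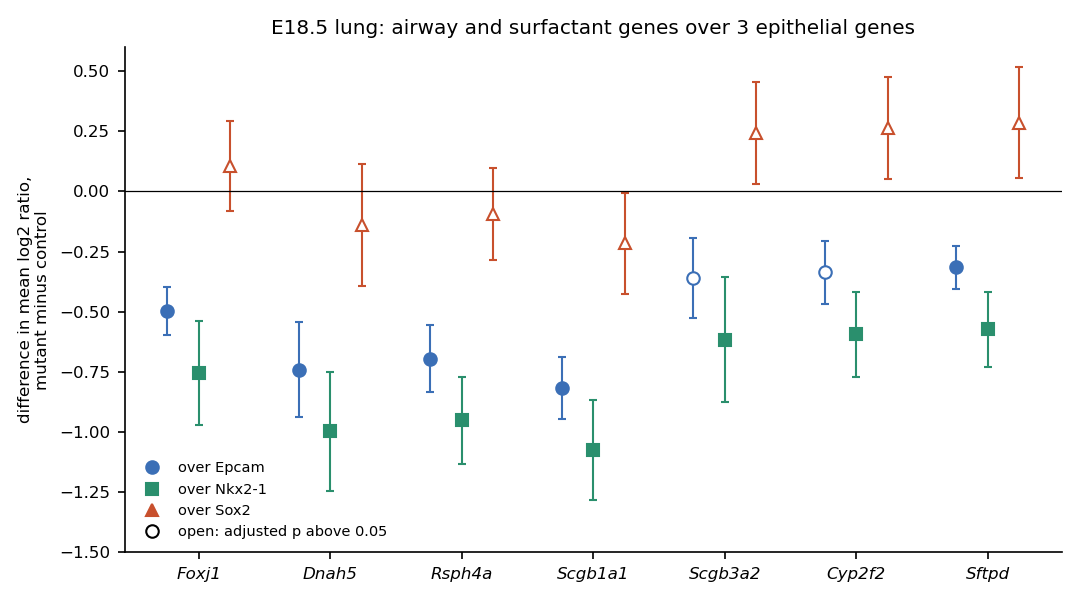
Difference between mutants and controls in the mean log2 ratio of 7 airway or alveolar genes to Epcam, Nkx2-1 or Sox2, with standard errors as bars; filled points have an adjusted p below 0.05. Points against Epcam and Nkx2-1 lie below 0, and those against Sox2 lie on both sides of it.

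In the alveolar lists 1 gene passed. Of 31 genes of type 2 cells and surfactant 1 fell (3.23%, beside 0.550% of all genes). Sftpd, a collectin that clears microbes, stood at 226, 203, 221 and 253 CPM in controls and at 144, 175 and 198 CPM as lowest, median and highest mutant, a log2 fold change of -0.41 (standard error 0.083, adjusted p 0.0268). The list's median was -0.07, and Sftpc, its most abundant member, had a log2 fold change of -0.01 (standard error 0.0771, adjusted p 0.979). None of 25 genes of flat type 1 cells passed (median -0.05). Their most abundant members, Ager and Emp2, gave 0.01 (standard error 0.0661, adjusted p 0.981) and -0.05 (standard error 0.0718, adjusted p 0.863). General epithelial genes passed in 0 of 27 cases (median -0.02), with -0.08 (standard error 0.0551, adjusted p 0.704) for the adhesion protein Cdh1. Lung epithelial transcription factors passed in 0 of 27 cases and lay mostly above 0 (20 of 27, median 0.09). The call for Sftpd was lost in this way: Sftpd without control 1, 3 or 4 or mutant 1, 4 or 6 (-0.46 to -0.35). It was also lost with all 30 libraries in 1 fit.

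Smooth muscle genes are the known targets of myocardin. Of 57 contractile genes 3 fell (5.26%, beside 0.550% of all genes) and none rose, with a median of -0.08. In 5 of the 57 every mutant lay below every control, against 1.75% of all genes. Myh11, the smooth muscle myosin heavy chain, stood at 113, 109, 108 and 98.6 CPM in controls and at 70.6, 82.3 and 97.3 CPM as lowest, median and highest mutant. The groups did not overlap, and the log2 fold change was -0.37 (standard error 0.0804, adjusted p 0.0426). Synpo2, an actin-bundling protein of dense bodies, had -0.58 (standard error 0.118, adjusted p 0.0268), and Itga7, a laminin receptor of muscle, had -0.46 (standard error 0.094, adjusted p 0.0268). Genes for the actin filament gave 0 of 12 in edgeR (median -0.04), with 4 lower at an unadjusted p below 0.05 and 2 lower in DESeq2. Cnn1, a calponin, and Tagln, transgelin, did not pass, with -0.95 (standard error 0.245, adjusted p 0.107) and -0.63 (standard error 0.215, adjusted p 0.316), and Acta2, smooth muscle actin, had -0.08 (standard error 0.0763, adjusted p 0.789). Smooth muscle channels and receptors gave 0 of 33 in edgeR (median -0.12), with 1 lower in DESeq2. SRF and its cofactors gave 0 of 15 (median 0.03), and vascular smooth muscle and pericyte genes 0 of 20 (median 0.002). No contractile gene passed without control 1, control 3, control 4, mutant 4 or mutant 6, nor with the ribosomal RNA covariate, nor with all 30 libraries in 1 fit; calls were lost for Myh11 without control 1, 2, 3 or 4 or mutant 1, 2, 4, 5 or 6 (-0.42 to -0.33), Synpo2 without control 1, 2, 3 or 4 or mutant 4 or 6 (-0.63 to -0.52) and Itga7 without control 1, 3 or 4 or mutant 2, 4 or 6 (-0.53 to -0.39).

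The CArG box, bound by SRF, was in 12 of 63 windows (19%) of tested contractile genes and in 1.63% of all windows. The 63 windows came from 48 genes. Cnn2, a calponin chosen for its marked motif and abundance, shows one beginning 56 bases before the start, in capitals.
Cnn2 (chr10:79988350-79988649, plus strand): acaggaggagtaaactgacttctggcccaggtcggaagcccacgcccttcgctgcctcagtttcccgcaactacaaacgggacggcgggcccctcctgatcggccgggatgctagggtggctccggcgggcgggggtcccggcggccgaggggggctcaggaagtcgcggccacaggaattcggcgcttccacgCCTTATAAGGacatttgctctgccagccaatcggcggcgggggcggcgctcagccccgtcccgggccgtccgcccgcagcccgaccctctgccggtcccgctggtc
Cnn2 averaged 606 ± 31.9 CPM in controls and 611 ± 48.1 CPM in mutants, a log2 fold change of 0.01 (standard error 0.0665, adjusted p 0.98).

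The mutant effect was set against the lungs at E13.5 with an interaction term. Between stages, 5 of 18639 genes (0.0268%) differed. In simulated counts with known changes, the stage test found 26.9% of genes changed 1.5-fold and 53.7% of those changed 2-fold. Acta2 was lower at E13.5, with a log2 fold change of -1.20 (332 ± 30.7 CPM in controls and 145 ± 32.8 CPM in mutants, n = 5 each), and near 0 at E18.5. The stage difference was 1.11 (SE 0.173, adjusted p 0.00701). Mns1, a protein of the ciliary microtubule lumen, went the other way: it rose at E13.5, by 0.62 (adjusted p 0.0065), and had -0.65 at E18.5 (adjusted p 0.0734), a difference of -1.27 (SE 0.15, adjusted p 0.000245). The exons of Mns1 share 53.0% of their bases with other genes. Lgr6, a receptor of the WNT pathway, differed by 1.26 (SE 0.228, adjusted p 0.0459). Ccdc150 differed by -1.60 and Nupr1, a stress-response gene, by -1.47 (adjusted p 0.00701 for both). Nupr1 passed at neither stage alone. It averaged 1.51 CPM in controls and 3.17 CPM in mutants at E13.5 (adjusted p 0.0981), and 79.3 and 59.8 CPM at E18.5 (adjusted p 0.0817). The count of stage differences ranged from 3 without E18.5 control 1 to 19 without E18.5 control 2, and 1 of the 5 E13.5 controls is labelled MyocdF/F with no transgene.

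Against the trachea at E18.5, 5 of 19859 genes (0.0252%) differed between tissues. In simulated counts with known changes, this test found 1.49% of genes changed 1.5-fold and 31.3% of those changed 2-fold. Differences of that size would mostly be missed. Myh11 fell more in the trachea, with a log2 fold change of -2.02 there (262 ± 71 CPM in 4 controls and 64.5 ± 12.3 CPM in 6 mutants), a difference of 1.61 (SE 0.203, adjusted p 0.00035). Mylk, the kinase that activates smooth muscle myosin, differed by 0.86 (SE 0.151, adjusted p 0.0303) and Rgs2, which dampens G protein signals, by 1.07 (SE 0.178, adjusted p 0.0163). Cytl1, made by cartilage cells, differed by 1.5 (adjusted p 0.000323). It fell in the trachea, from a mean of 306 CPM in controls to 146 CPM in mutants. In the lung its level was low, at 2.5 and 3.5 CPM, and it did not pass (adjusted p 0.537). Lrrc23 fell in the lung and had 0.45 in the trachea (adjusted p 0.596), a difference of -1.20 (SE 0.195, adjusted p 0.0142). Lung and trachea libraries share numbers within a genotype, and the labels do not say whether they share embryos; the test above treats them as independent. With same-numbered libraries as a block, 5 genes passed, but Lrrc23 did not (difference -1.19, adjusted p 0.0662). The count of tissue differences ranged from 2 without lung control 4 to 9 without lung control 2.

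The lung falls were followed into the other comparisons. At E13.5, 69 of the 96 were tested and 40 lay below 0 (58.0%, beside 46.0% of all genes); 4 fell there, Myh11, Synpo2, Gm1821 and Mycl, where 0.188% of all genes fell. In the trachea, 74 of 96 lay below 0 (77.1%, beside 48.7% of all genes) and 3 fell, Myh11, Synpo2 and Gm1821, where 0.0655% of all genes fell. Every lung correlated best with the trachea of its own number (0.0309 to 0.156), and the labels do not say whether they share embryos. The trachea may thus not be independent of the lungs in which these falls were picked. Of the 30 falling ciliated genes, 19 lay below 0 in the trachea and none fell there. The spread between libraries, as edgeR's biological coefficient of variation, was 0.37 in the trachea and 0.18 in the E18.5 lung. A fall of a given size was therefore harder to call in the trachea.

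Most matrix and signalling lists held no passing gene, where 0.584% of all genes passed. Of 22 elastic fibre genes 1 fell (4.55%, beside 0.550% of all genes). This was Fn1, the fibronectin of the extracellular matrix, from 5151 ± 402 CPM in the 4 controls to 4084 ± 368 CPM in the 6 mutants (SD), a log2 fold change of -0.34 (standard error 0.0714, adjusted p 0.0371), while the list's median was 0.09. Collagens outside cartilage gave 0 of 23 (median 0.04), and the most abundant, Col4a1, gave -0.04. Cartilage gave 0 of 18 (median 0.12) and tendon genes 0 of 15 (median 0.08). In the BMP pathway 1 of 33 genes fell (3.03%), Crim1, a membrane protein that binds BMPs, with -0.42 (standard error 0.073, adjusted p 0.00994). In the same list 1 rose (3.03%, beside 0.0344% of all genes), Gdf10, of the BMP family, with 0.56 (standard error 0.118, adjusted p 0.0322). No gene of the FGF, hedgehog, WNT, TGF-beta or Notch lists passed, with medians from 0.008 to 0.054. With all 30 libraries in 1 fit no BMP gene passed. Leaving out 1 library ended the call for Fn1 without control 1 or 4 or mutant 2, 3, 4, 5 or 6 (-0.38 to -0.29), Crim1 without control 1 (-0.46 to -0.36) and Gdf10 without control 1, 3 or 4 or mutant 1, 4 or 6 (0.46 to 0.70).

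Only 6 genes rose. Pianp, a ligand of the receptor PILR alpha, stood at 7.08, 9.6, 12.2 and 7.1 CPM in controls and at 16, 19.2 and 22 CPM as lowest, median and highest mutant, a rise of 2.1-fold and a log2 fold change of 1.07 (standard error 0.158, adjusted p 0.00411). 2610507I01Rik stood at 14.9, 14.1, 16.8 and 16.1 CPM in controls and at 20.8, 26.7 and 29.5 CPM in mutants by the same measure, a log2 fold change of 0.75 (standard error 0.108, adjusted p 0.00326). In both every mutant lay above every control, as for 0.670% of all genes, and both passed in every fit without 1 library; with all 30 libraries in 1 fit 2610507I01Rik did not (adjusted p 0.169). Mmp23, a matrix metalloproteinase, had 0.86 (standard error 0.165, adjusted p 0.0184); Mex3a, an RNA-binding protein, had 0.44 (standard error 0.0911, adjusted p 0.0322); and Marcksl1, which binds actin, had 0.36 (standard error 0.0759, adjusted p 0.0371). None of the 6 passed as higher at E13.5, where 0.0182% of all genes did, or in the trachea, where 0.00546% did. By sign, 3 of the 6 lay below 0 at E13.5 (median 0.01) and 1 of the 6 in the trachea (median 0.52). Calls were lost for Mmp23 without control 1, 3 or 4 or mutant 4 (0.80 to 0.95), Mex3a without control 1, 3 or 4 or mutant 1, 2 or 6 (0.37 to 0.50) and Marcksl1 without control 1, 3 or 4 or mutant 2, 4, 5 or 6 (0.29 to 0.40).

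Cell cycle genes lay above 0 without passing. All 32 had a positive log2 fold change (median 0.32), and 24 were higher at an unadjusted p below 0.05, but none passed in edgeR and 1 did in DESeq2. Mki67, a marker of dividing cells, stood at 146 to 213 CPM in controls and 188 to 236 CPM in mutants, with 0.18 (standard error 0.0993, adjusted p 0.621), and Top2a, which untangles replicated DNA, stood at 136 to 225 CPM in controls and 175 to 243 CPM in mutants, with 0.27 (standard error 0.125, adjusted p 0.537). The list's mean deviation in log2 CPM was -0.35, -0.25 and -0.40 in controls 1, 3 and 4 but 0.17 in control 2, within the mutants' range of -0.03 to 0.37. Without control 2, 15 of the 32 passed, all higher, with a median of 0.48; in the other fits that left out 1 library none did.

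Most lists of other cell types held no passing gene, where 0.584% of all genes passed. Endothelial genes gave 0 of 34 (median -0.02), with 727 ± 53.3 CPM in controls and 719 ± 29.7 CPM in mutants for the junction protein Pecam1. Leukocyte genes gave 0 of 27 (median -0.10), with 1 lower in DESeq2, and mesothelial genes 1 of 17 (5.88%, beside 0.550% of all genes), C3. C3, the central complement protein, fell from 345 ± 44.3 CPM in the 4 controls to 214 ± 23.6 CPM in the 6 mutants (SD), a log2 fold change of -0.69 (standard error 0.0894, adjusted p 0.00319). The call for C3 held in every fit that left out 1 library but was lost with the ribosomal RNA covariate (adjusted p 0.267) and with all 30 libraries in 1 fit (adjusted p 0.228). Red cell genes gave 1 of 18 (5.56%), Slc4a1, the anion exchanger of the red cell membrane, with -0.93 (standard error 0.173, adjusted p 0.0167). Neural genes gave 0 of 15 (median -0.22), cardiac genes 0 of 19 (median -0.12) and skeletal muscle genes 0 of 9 (median -0.56). Among the latter, Ckm, a muscle creatine kinase, gave -0.35 (adjusted p 0.817). The skeletal list's mean deviation in log2 CPM was 1.27, -0.16, 0.43 and -0.18 in controls 1 to 4 and -0.66 to 0.07 in mutants. Without 1 library its median ranged from -0.86 to -0.17. Genes of thyroid, parathyroid, thymus and oesophagus gave 0 of 3 (median 1.33). The part of these lists in the results was not tested. Stress lists gave no passing gene: immediate early genes had a median of -0.16, hypoxia genes of -0.09 and ATF4 targets of 0.11. The 28 lists in which no gene passed in edgeR held 599 tested entries. At an unadjusted p below 0.05, 52 of the 599 were lower and 61 higher, beside 1644 of all 17467 genes in either direction. Of the 61, 24 were cell cycle genes. DESeq2 called 6 of the 599 lower and 4 higher. The call for Slc4a1 was lost in this way: Slc4a1 without control 3 or 4 or mutant 4 or 6 (-1.05 to -0.77).

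**Figure D4:**
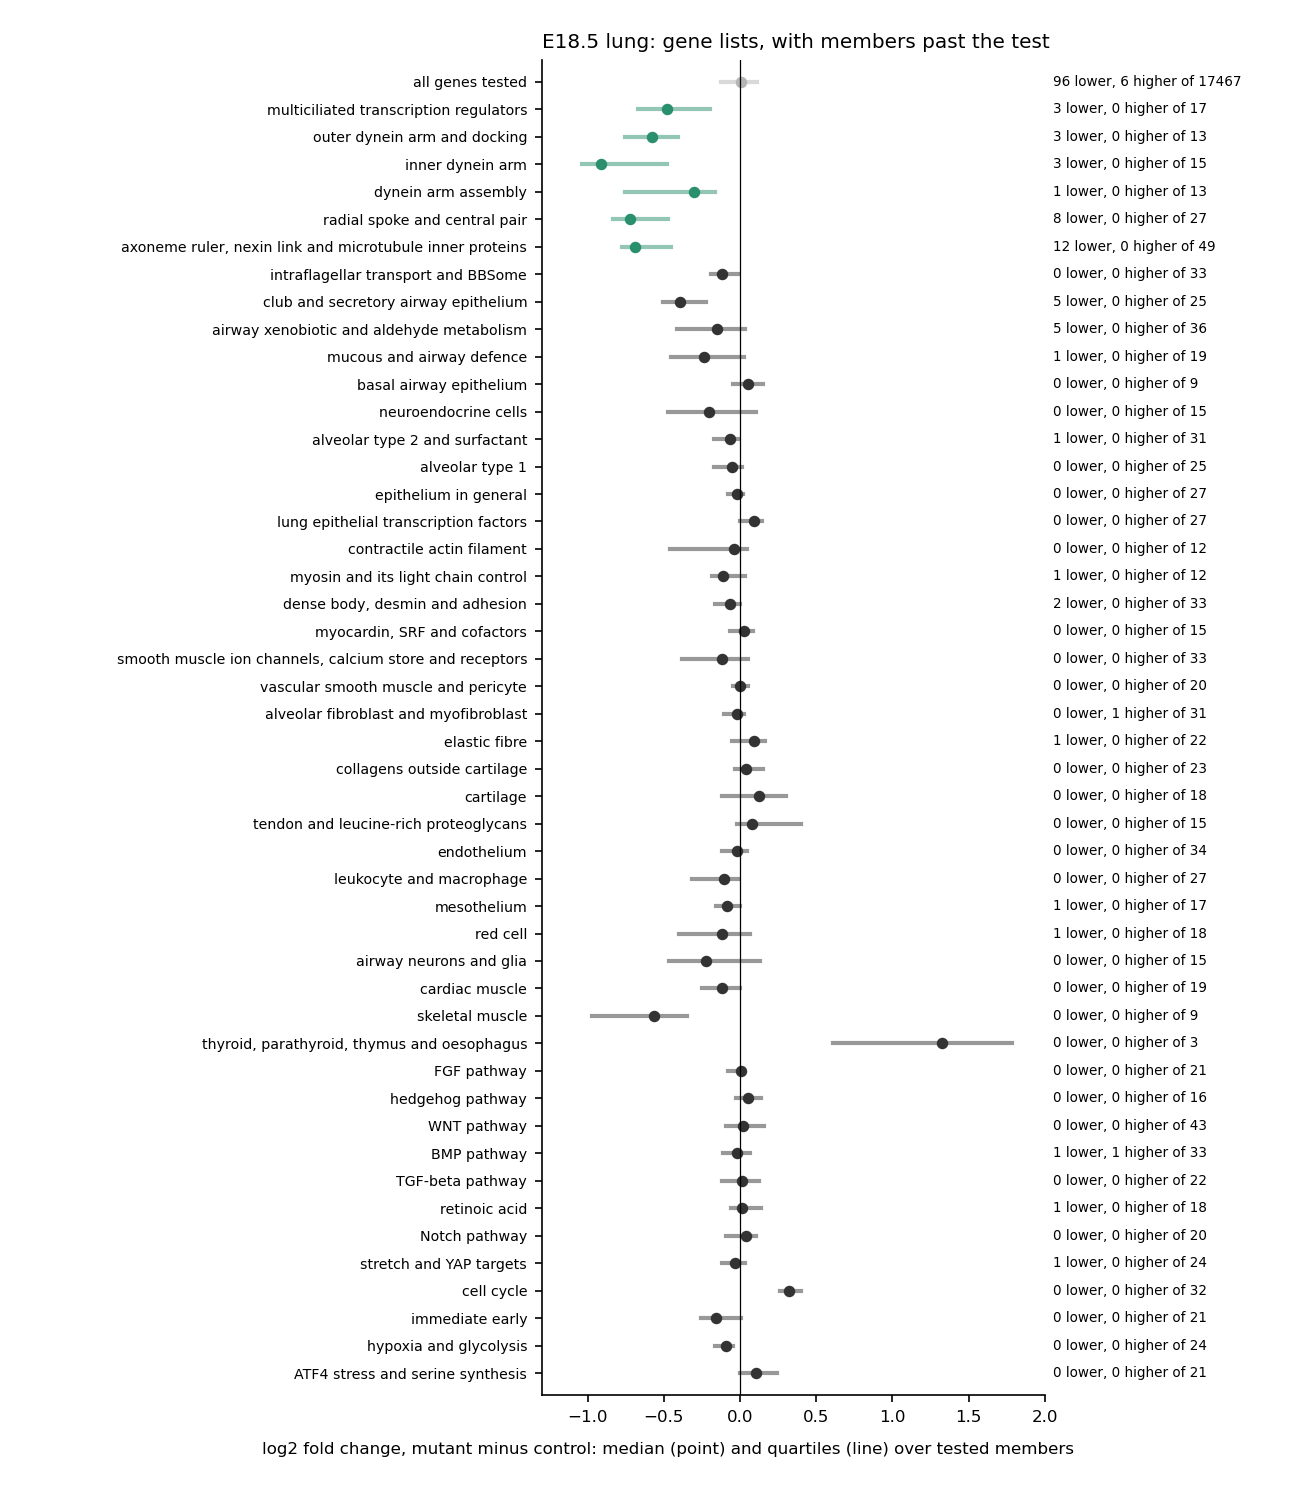
Median and quartiles of the log2 fold change for all genes and for 47 gene lists, with counts of genes that passed. The inner dynein arm, radial spoke and axoneme lists have medians below -0.6, and most other lists have medians near 0.

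**Figure D5:**
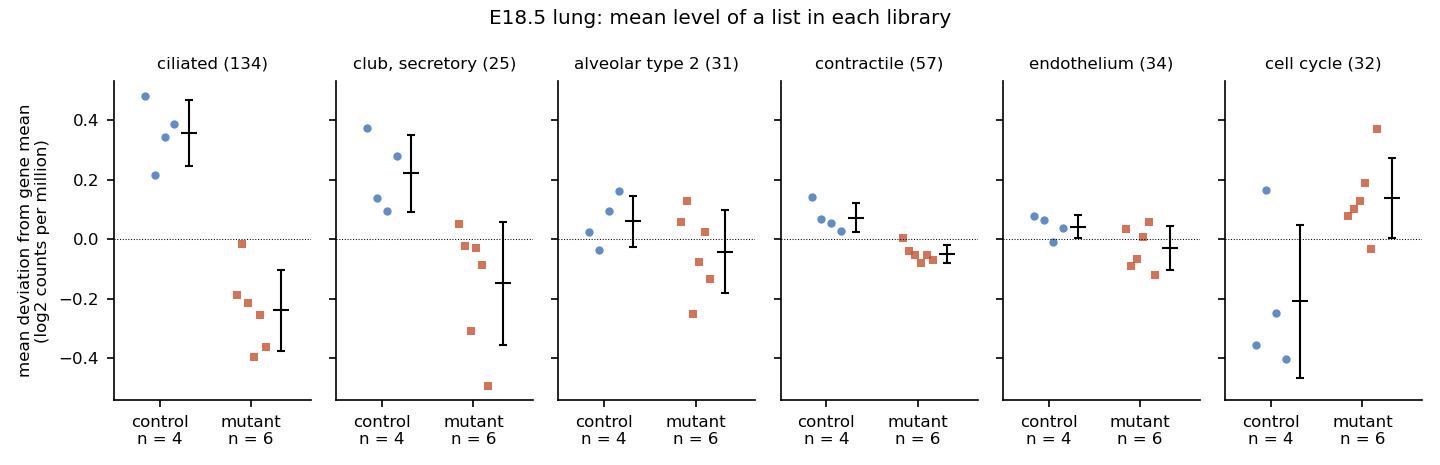
Mean deviation of log2 CPM from the mean over 10 libraries for 6 lists in each library. Every mutant lies below every control for the ciliated list, while for the cell cycle list control 2 lies among the mutants.

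Falling genes occurred at every level of expression, most often at the middle level. Of the 96, 47 were in the middle of 5 equal groups of tested genes by mean level (10.3 to 31.1 CPM), with 2 and 18 in the groups below and 14 and 15 in those above. By exon length the counts were 16, 17, 13, 23 and 27 from the shortest to the longest group. The test has less power at low levels, and these counts were not set against an even split.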

How the data were processed

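RNA-seq gene counts were analysed for the 10 E18.5 lung libraries, with the 10 E13.5 lung and 10 E18.5 trachea libraries used for the comparisons of effects. The authors aligned reads with STAR to GRCm38, per the submitters' processing notes, and deposited raw read counts per gene made with featureCounts 1.6.2 and GENCODE M17, per the file headers. The recorded command sets no strand option, so reads of overlapping and antisense genes cannot be told apart. Gene names and biotypes came from the GENCODE M21 annotation, which matched 53620 of 53715 gene IDs.

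Counts were tested with edgeR 4.0.16 in R 4.3.3 (TMM scaling, filterByExpr, robust quasi-likelihood fit, Benjamini-Hochberg adjustment, threshold 0.05), with the lung libraries only; stage and tissue differences came from interaction terms. DESeq2 1.42.0, other filters, scalings, covariates, a replicate block and leaving out each library were the alternatives. The scripts were tested on simulated data. CPM values are TMM-scaled. Ratios were tested with an exact two-sided permutation test. Promoter windows were read from RefSeq (GRCm38.p6). No library pair agreed within sampling noise (lowest chi-square per degree of freedom 9.92).

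Named genes are the 15 falls and the rises with the smallest p at 1 CPM or more, and in each of 47 gene lists up to 6 passing members or, where none passed, the most abundant ones. The members and lists were chosen with earlier results of these data known, and gene symbols in the lists were brought to the annotation's names after the first fit. The result of 1 gene is not reported here.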

Additional observations from a re-analysis of the deposited data

Results flagged for a closer look

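Of 232 groups of 4 or 6 libraries examined, 13 held a library far from the others by Dixon's criterion, where chance gives about 1 in 20. In the controls, Scgb1a1 was lowest in control 3, at 621 CPM beside 717 CPM for the next, Cnn2 was lowest in control 3, at 559 CPM beside 617 CPM, and Erbb3 was lowest in control 2, at 139 CPM beside 169 CPM. Mmp23 was highest in control 1, at 9.36 CPM beside 8.04 CPM.

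Mutant 3 held 5 of the 13. It was highest for Aldh1a1 (74.1 CPM, next 65 CPM), Mrc1 (60.2 CPM, next 47.7 CPM), Hhip (416 CPM, next 329 CPM) and Crim1 (76.7 CPM, next 67.1 CPM), and lowest for the share of reads in the 50 most abundant genes (10.7%, next 11.3%). In the other mutants, Ccdc78 was highest in mutant 2 (11.6 CPM, next 8.22 CPM), Iqcg lowest in mutant 5 (6.58 CPM, next 8.11 CPM), Tg lowest in mutant 4 (0.506 CPM, next 1.52 CPM) and Klf6 lowest in mutant 6 (128 CPM, next 153 CPM).

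The mutant effect differed between E18.5 and E13.5 lung by an interaction test for Ccdc150 (log2 difference -1.60), Lgr6 (1.26), Nupr1 (-1.47), Mns1 (-1.27) and Acta2 (1.11). It differed between lung and trachea at E18.5 for Rgs2 (1.07), Cytl1 (1.5), Lrrc23 (-1.20), Myh11 (1.61) and Mylk (0.86).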

How the results depend on the processing

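The count of 102 passing genes was 262 with DESeq2, 192 with no filter on low counts, 4 with the ribosomal RNA share as a covariate and 12 against a 1.2-fold null; leaving out 1 library gave 26 to 205. The 5 stage differences became 42 with DESeq2 and 1 with the replicate block, and 3 to 19 without 1 library; the 5 tissue differences became 66 with DESeq2 and 2 to 9 without 1 library. The cause was not tested. All 102 genes kept their sign under every alternative that tested them (101 of them at a mean of at least 1 CPM). The replicate block gave 73 passing genes, 52 of them among the 102, and 15 falls in the ciliated lists. Same-numbered control and mutant libraries correlated at 0.018, 0.108, 0.186 and 0.060 in their deviations. Controls 2, 3 and 4 each correlated best with the mutant of their own number, control 4 narrowly (0.0603, beside 0.0601 with mutant 2). Control 1 correlated best with mutant 3 (0.169). Xist, an RNA of female cells, stood at 815 and 830 CPM in controls 2 and 4 and at 0.311 and 0.280 CPM in controls 1 and 3. It stood at 788 to 889 CPM in mutants 1, 2 and 4 and at 0 to 0.759 CPM in mutants 3, 5 and 6. Each best match named here joined libraries alike in Xist, and the part of sex was not tested. With the Xist level as a covariate 95 genes passed, 93 of them among the 102. The labels do not say that the numbers mark shared litters, so the block was kept as an alternative. Whether the numbers pair the lungs was not settled.

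Set against the mean of the epithelial list in place of Epcam, the differences in mean log2 ratio of Scgb3a2 and Cyp2f2 were -0.427 and -0.405 and passed. Without 1 library the differences in the Epcam ratios ranged from -0.830 to -0.623 for Dnah5, from -0.452 to -0.256 for Scgb3a2, from -0.395 to -0.258 for Cyp2f2 and from -0.378 to -0.278 for Sftpd. Those over Nkx2-1 ranged from -0.743 to -0.398 for Scgb3a2, from -0.685 to -0.456 for Cyp2f2 and from -0.630 to -0.439 for Sftpd. Those over Sox2 ranged from -0.0104 to 0.217 for Foxj1 and from -0.204 to 0.0308 for Rsph4a; their signs turned without mutant 6 (-0.0104) and without control 3 (0.0308). Scaling without composition factors gave 99 genes; this and the block shared by lung and trachea, in which every lung correlated best with the trachea of its own number (0.0309 to 0.156), were chosen after seeing the data. Fitting all 30 libraries gave 118 genes and ended 33 of the 102 calls. Depth was not separated from the spread between lungs.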

Other observations

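Some complement genes were read after their values were seen. C3, Cd55 and C1s1 passed, all lower, and the exons of C1s1 share 18.4% of their bases with other genes. Cd55, which protects cells from complement, fell from 47.6 ± 2.74 CPM in the 4 controls to 36.1 ± 2.19 CPM in the 6 mutants (SD), a log2 fold change of -0.40 (standard error 0.0769, adjusted p 0.0184). C1s1, a protease of the classical pathway, had -0.67 (standard error 0.143, adjusted p 0.0367). C4b had -1.24 (standard error 0.353, adjusted p 0.175), with every mutant below every control, and Serping1, which inhibits C1 proteases, had -0.19 (standard error 0.0627, adjusted p 0.274). C1qa, Cd59a, Masp1 and Cr1l gave 0.02, 0.03, 0.03 and 0.00 on the log2 scale and did not pass. Neither Cd55 nor C1s1 passed with all 30 libraries in 1 fit. Calls were lost for Cd55 without control 1, 3 or 4 (-0.44 to -0.38) and C1s1 without control 1, 2 or 4 or mutant 3, 4, 5 or 6 (-0.78 to -0.58).

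Gm1821 fell in all 3 comparisons of the series. Its mean was 26.0 CPM in controls and 0.859 CPM in mutants at E13.5 (log2 fold change -4.91, adjusted p 0.0204), and 34.6 CPM and 1.09 CPM in the trachea (-4.93, adjusted p 7.42e-08), by edgeR. Ubb, a ubiquitin gene, averaged 204 ± 4.56 CPM in controls and 226 ± 16 CPM in mutants in the E18.5 lung.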
